A study of Caenorhabditis elegans with 6 samples.

Results

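The abu and pqn genes of Caenorhabditis elegans were followed in whole L4 larvae of 2 genotypes, zip-3(gk3164) and wild-type, with 3 Affymetrix arrays for each genotype. All animals had been synchronized by bleaching, grown in liquid culture and fed bacteria for control RNAi, and the labels give whole organisms as the tissue. zip-3 encodes a bZIP transcription factor, and the labels name the allele without describing the lesion. The members are the probe sets that the platform annotation ties to exactly 1 gene whose symbol starts with abu- or pqn-. There were 93 such probe sets for 58 genes, of 17118 genes on the array, and they divided into 11 abu genes and 47 other pqn genes. Where a gene had several probe sets, the brightest by its mean over all arrays represents it, and the values are MAS5 signals, a summary of probe brightness on a linear scale.

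The name abu stands for activated in blocked unfolded protein response: the genes were found by their rise under endoplasmic reticulum stress in worms in which the main branch of that response could not be engaged. The name pqn marks proteins with a prion-like domain rich in glutamine and asparagine, a feature of sequence that secreted, cytoplasmic and nuclear proteins of unrelated function can share. Many abu proteins and some of their pqn paralogs are secreted and lie in the cuticle that lines the pharynx, the feeding organ, which is shed and rebuilt at every moult, and their transcripts are known to cycle with the moults. Because whole animals were measured, fewer cells of a type and less RNA per cell cannot be told apart, and the tissue of the transcripts cannot be read from these arrays.

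The targeted gene was measured first. zip-3 had signals of 384.6, 458.7 and 233.8 on the mutant arrays, against 1203.9, 1112.7 and 939.6 on the wild-type arrays. The difference was -1.64 ± 0.28 on the log2 scale (SE, n = 3 arrays per genotype; limma, adjusted p = 0.0717), and the exact two-sided permutation test over arrays gave p = 0.10, the smallest that 3 against 3 arrays allow. Whether the probe set lies inside the deleted sequence is not given in the sources used here. Each array had been scaled to the same trimmed mean, 500.2, and array medians ran between 123.9 and 139.1. Correlations of log2 signals over the probe sets tested were 0.890 to 0.956 among the mutant arrays and 0.954 to 0.972 among the wild-type arrays, with mutant array 3 the one that stood apart from its group. Mutant array 3 correlated at 0.943 to 0.958 with the wild-type arrays, higher than its 0.890 and 0.925 with the other mutant arrays. The labels call the arrays biological replicates and say nothing more of separate cultures, so p-values measure the spread between these samples.

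Most abu genes, 8 of 11, had lower mean log2 signals in zip-3(gk3164) larvae, as did 20 of the 47 other pqn genes. The median difference, mutant minus wild-type, was -1.49 on the log2 scale over the 11 abu genes, 0.09 over the 47 other pqn genes and 0.08 over all genes on the array. No abu gene had an adjusted p under 0.05 in limma. The wild-type arrays themselves lay far apart in these genes: the median range of an abu gene over the 3 wild-type arrays was 1.84 on the log2 scale. The corresponding wild-type range was 0.71 for the other pqn genes and 0.62 for all genes. The abu range was larger than the median difference between genotypes. The 2 are unlike measures, since a range compares single arrays and the difference compares means of 3 arrays.

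Of the 58 genes, 44 reached the signal at which a gene was tested, a mean log2 value at or above the 40th percentile of the array, which is a signal of 68.7. These were 9 abu genes and 35 other pqn genes. In limma with Benjamini-Hochberg adjustment, 0 of the 9 abu genes and 0 of the 35 pqn genes had an adjusted p under 0.05, where 0.154% of the 10369 genes tested did. At an unadjusted p under 0.05, 6 of the 9 abu genes were lower in the mutant and 0 were higher, where 10.1% of all genes tested were lower and 9.87% higher. Among the pqn genes 3 of 35 were lower and 5 were higher at that level. All 3 mutant arrays lay below all 3 wild-type arrays for 6 of the 9 abu genes and 3 of the 35 pqn genes, where 9.34% of genes did. All mutant arrays lay above all wild-type arrays for 0 abu genes and 10 pqn genes, where 13.8% of genes did.

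**Figure D1:**
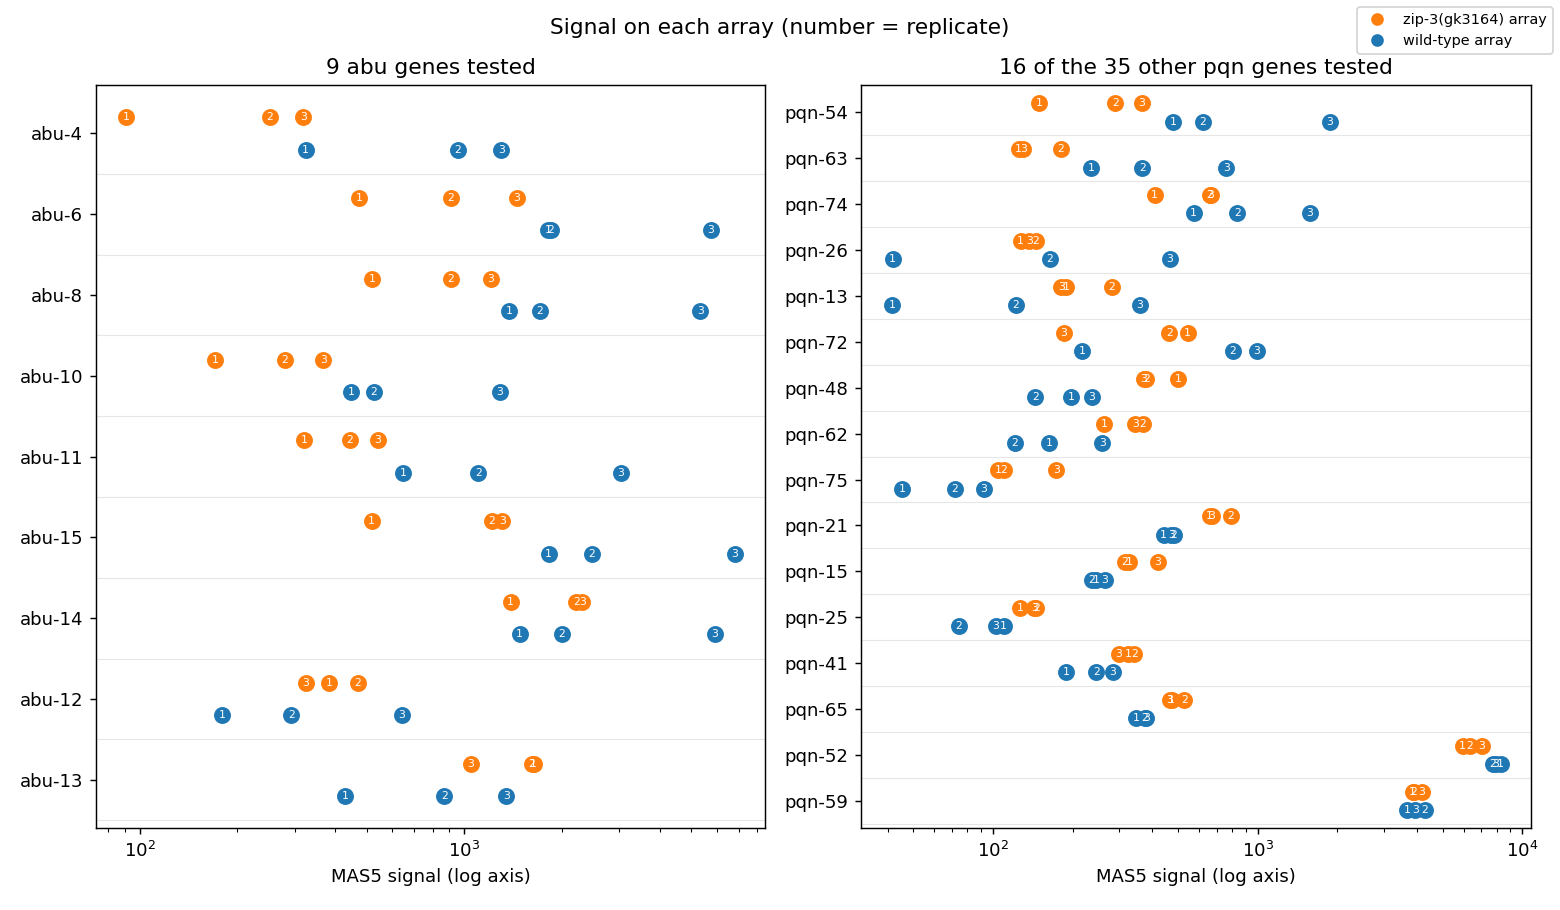
MAS5 signal (horizontal log axis) of the 9 abu genes tested and of 16 of the 35 other pqn genes tested. The 16 are the tested pqn genes named in the text except pqn-94. Each point is 1 array, its number is the replicate, and the zip-3(gk3164) row lies above the wild-type row of the same gene. For abu-4, abu-6, abu-8, abu-10, abu-11 and abu-15 no mutant array reaches the lowest wild-type array, while wild-type array 3 lies to the right of the other wild-type arrays in all 9 abu genes.

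The genes abu-4, abu-6, abu-8, abu-10, abu-11 and abu-15 had no overlap between genotypes, with adjusted p between 0.181 and 0.204. abu-15 had signals of 518.4, 1218.2 and 1308.9 in zip-3(gk3164) larvae, against 1817.9, 2476.8 and 6820.6 in wild-type larvae. The lowest wild-type array lay above every mutant array, and wild-type array 3 exceeded the other wild-type arrays by more than 2-fold. The means were 1015 ± 433 in the mutant and 3705 ± 2718 in wild-type (SD, n = 3 each), a difference of -1.74 ± 0.54 on the log2 scale (SE; limma, adjusted p = 0.181). abu-6, which the annotation of assembly WBcel235 places next to abu-15 on chromosome V with 0 protein-coding genes between them, had 475.4, 910.0 and 1453.2 in the mutant, against 1809.3, 1845.1 and 5756.2 in wild-type. Its difference was -1.64 ± 0.55 (SE, n = 3 per genotype; limma, adjusted p = 0.189). abu-8 lies in the same stretch of chromosome V, with 6 genes between it and abu-7. Its signals were 519.4, 907.1 and 1205.4 in the mutant, against 1372.2, 1707.7 and 5334.8 in wild-type, and its second probe set differed by -1.68 where the first differed by -1.49.

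The probe sets of these neighbours carry suffixes that the manufacturer gives to sequence shared between transcripts, so the 3 genes may not have been measured apart. That is true of 7 of the 11 abu genes and 20 of the 47 other pqn genes. abu-10 is the only one of the 6 non-overlapping genes whose probe set carries no such mark. It had signals of 170.6, 280.2 and 368.0 in zip-3(gk3164) larvae, against 448.6, 526.1 and 1288.2 in wild-type larvae, again without overlap. The difference was -1.37 ± 0.45 on the log2 scale (SE, n = 3 per genotype; limma, adjusted p = 0.189), smaller than in the other 5 genes. A second unmarked probe set of abu-10 was dim, was not tested and gave -0.19.

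abu-11, a gene whose overexpression has been reported to lengthen worm lifespan, had signals of 320.8, 445.1 and 542.0 in the mutant, against 647.1, 1105 and 3034.3 in wild-type. Its wild-type arrays spanned 2.23 on the log2 scale, the widest among the 9 abu genes tested, and its difference between genotypes was -1.60 ± 0.53 (SE, n = 3; limma, adjusted p = 0.189). abu-4 had signals of 90.8, 251.9 and 318.9 in the mutant, against 324.4, 955.4 and 1299.3 in wild-type. The difference of -1.93 ± 0.62 (SE; limma, adjusted p = 0.188) was the largest among the abu genes tested, although mutant array 3 and wild-type array 1 nearly met. Another tested probe set of abu-4 gave -1.82, and a dim one, which was not tested, gave 1.32.

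abu-14 differed from these in that its 2 genotypes overlapped. Its signals were 1390, 2213.2 and 2313.1 in the mutant, against 1480.6, 2002.5 and 5922.6 in wild-type, and the difference was -0.43 ± 0.49 (SE, n = 3 per genotype; limma, adjusted p = 0.677). Here wild-type arrays 1 and 2 lay among the mutant arrays, and only wild-type array 3 stood above them. A second probe set gave -0.74, and neither is marked as sharing sequence.

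abu-12 and abu-13 were not lower on average. abu-13 had signals of 1635.5, 1613.2 and 1045.2 in zip-3(gk3164) larvae, against 428.4, 868.6 and 1346.5 in wild-type larvae, and differed by 0.82 ± 0.41 (SE, n = 3 per genotype; limma, adjusted p = 0.322). Mutant arrays 1 and 2 lay above every wild-type array and mutant array 3 did not. abu-12 had 382.7, 470.9 and 324.4 in the mutant, against 179.9, 293.3 and 643.1 in wild-type, a difference of 0.26 ± 0.44 (SE; limma, adjusted p = 0.793). In both genes the wild-type arrays were nevertheless spread as widely as in the rest of the family, by 1.84 in abu-12 and 1.65 in abu-13.

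The abu genes below the signal filter were abu-2 and abu-3. abu-2 had signals of 2.9, 5.6 and 24.0 in the mutant, against 46.9, 77.7 and 123.6 in wild-type, without overlap. All its mutant arrays and wild-type array 1 lay below the filter signal of 68.7, in the dim range where MAS5 values are noisy. Its difference was -3.39, and -1.89 with an offset of 16. Without the filter it had an unadjusted p of 0.00323 (limma, adjusted p = 0.187). abu-3 lay between 2.4 and 6.4 on all 6 arrays, and no difference can be read from it. A further 9 probe sets match several abu or pqn genes at once and so fall outside the members. They include one for abu-7 with abu-8, one for abu-1 with its neighbour pqn-2 and one for abu-9 with its neighbour pqn-57. Others match abu-5 together with several pqn genes, or pqn genes alone. Probe sets of pqn-91 with pqn-90 differed by -1.66 and -1.60. That of pqn-79 with pqn-76 differed by -1.33, and that of these 2 with pqn-78 and pqn-91 by -1.59. None of these pqn genes is among the 47 other pqn genes. Differences of the 9 probe sets ran between -1.82 and -1.33 on the log2 scale (limma, adjusted p 0.179 to 0.284). Their wild-type ranges lay between 1.86 and 2.47, and the mutant arrays lay below all wild-type arrays in 4 of the 9. In all 9, mutant array 1 was the lowest of the 6 arrays and wild-type array 3 the highest.

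**Figure D2:**
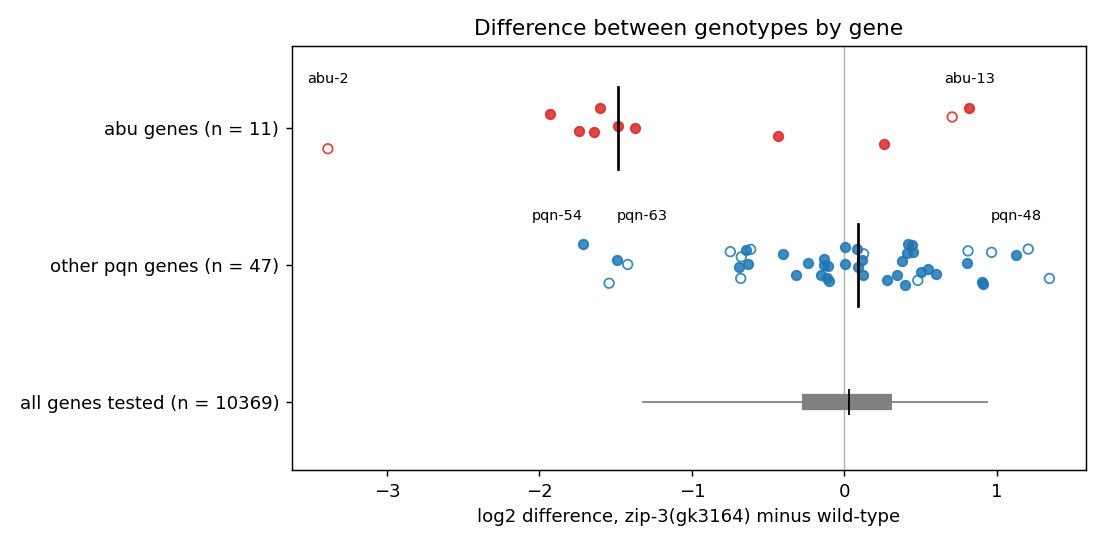
Difference between genotypes (horizontal axis, zip-3(gk3164) minus wild-type, log2 units) of each member, as filled points for the 44 genes tested and open points for the 14 below the signal filter; black lines are group medians, and the grey box runs between percentiles 25 and 75, and the thin line between percentiles 5 and 95, of all genes tested. Of the 9 abu genes tested 7 lie below 0 and 6 lie below -1, and 32 of the 35 pqn genes tested lie within 1 of 0.

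The wild-type arrays differed among themselves in the same genes. Every abu gene, 11 of 11, had its highest wild-type signal on array 3, and the 9 tested genes all had the same order of wild-type arrays, with array 1 lowest, array 2 between and array 3 highest. That order was found in 17 of the 35 pqn genes tested and in 18.2% of all genes tested. Wild-type array 3 exceeded wild-type array 1 by 2.87-fold to 4.69-fold in the abu genes tested, and it exceeded each of the other wild-type arrays by more than 2-fold in 7 of 9. The same was true of 5 of the 35 pqn genes. Ranked by wild-type range among the genes tested, the 9 abu genes fell between the 96.2nd and the 99.1st percentile. All of them spanned more than 1 on the log2 scale over the wild-type arrays, as did 11 of the 35 pqn genes and 11.1% of all genes tested. This contrast in spread rested largely on wild-type array 3, as the values without that array, given below, show.

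The mutant arrays were less far apart, with a median range of 1.11 on the log2 scale over the abu genes tested against 1.91 on the wild-type arrays. Mutant array 1 was the lowest of the 3 mutant arrays in 7 of the 9 abu genes tested, 19 of the 35 pqn genes and 23.8% of all genes tested. The median of the 9 abu genes, relative to each gene's wild-type mean, was -2.01, -1.36 and -0.88 on mutant arrays 1, 2 and 3, against -0.81, -0.34 and 1.10 on wild-type arrays 1, 2 and 3. Mutant array 3 and wild-type array 1 were therefore nearly level in these genes. The median of the 35 pqn genes stayed between 0.03 and 0.18 on the mutant arrays and between -0.13 and 0.14 on the wild-type arrays.

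Single arrays moved the abu values. Without wild-type array 3 the median difference of the abu genes was -0.90, and without mutant array 1 it was -1.15. The median wild-type range without wild-type array 3 was 0.45 for the abu genes and 0.42 for the other pqn genes, nearly level. A range can only stay or shrink when an array is left out, and it shrinks when that array was the extreme one. Without mutant array 1, 1 abu gene, abu-15, had an unadjusted p under 0.05 in place of 6. Without mutant array 3, 1 abu gene, abu-6, had an adjusted p under 0.05 (limma, adjusted p = 0.0451), where 2151 probe sets over the whole array did in place of 18. When probe sets marked as sharing sequence were left out, abu-10 and abu-14 were still tested. The other abu genes still represented, abu-2, abu-3 and abu-4, were dim and not tested, at -3.39, 0.71 and 1.32. The median difference over all of these was -0.43, the value of abu-14, and abu-10 alone had an unadjusted p under 0.05. When the log2 values of all probe sets of a gene were averaged, dim ones included, the median difference of the abu genes was -0.81. In that setting abu-10 differed by -0.78, and 4 abu genes, abu-6, abu-8, abu-11 and abu-15, had an unadjusted p under 0.05. The share of all genes at an unadjusted p under 0.05 is not given for the settings of this paragraph.

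**Figure D3:**
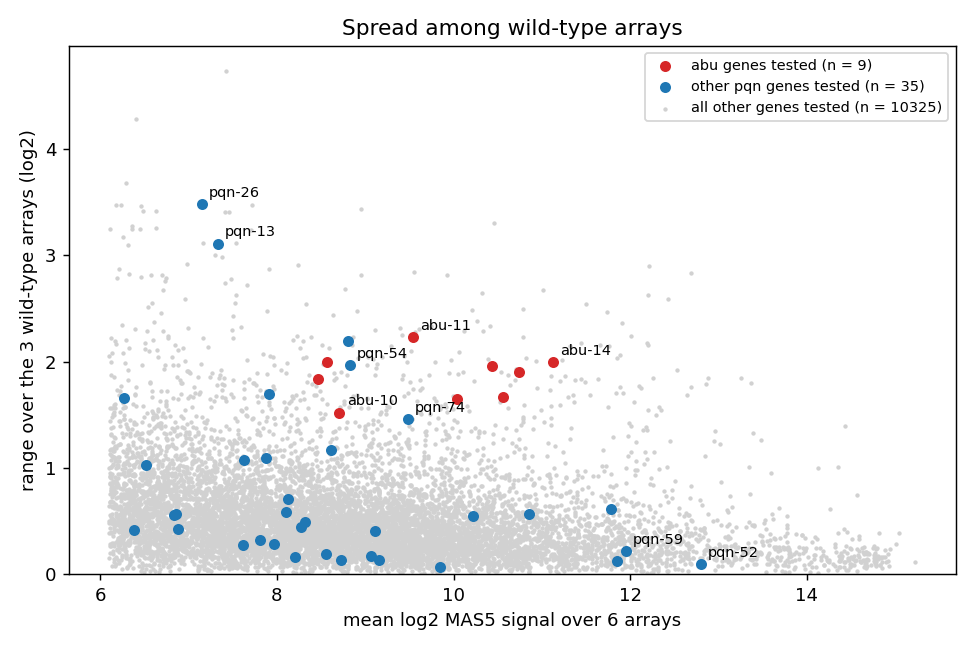
Range over the 3 wild-type arrays (vertical axis, log2 units) against the mean log2 signal over all 6 arrays (horizontal axis) for the 9 abu genes (red) and the 35 other pqn genes (blue) tested; grey points are the other 10325 genes tested. The abu genes lie at wild-type ranges between 1.52 and 2.23, above the median of 0.43 over all genes tested, and pqn-54 at 1.97 lies among them.

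Among the other pqn genes, pqn-54 and pqn-63 stood beside the abu genes in both respects, and pqn-74 came less close. pqn-54 had signals of 149.6, 289.9 and 363.6 in zip-3(gk3164) larvae, against 478.2, 620.0 and 1874.7 in wild-type larvae. The groups did not overlap, and the difference was -1.71 ± 0.55 on the log2 scale (SE, n = 3 per genotype; limma, adjusted p = 0.184) beside a wild-type range of 1.97. pqn-63 had 124.7, 180.7 and 130.2 in the mutant, against 234.6, 366.3 and 761.2 in wild-type, also without overlap. Its difference was -1.49 ± 0.42 (SE; limma, adjusted p = 0.169) and its wild-type range 1.70. Neither of these 2 probe sets is marked as sharing sequence. pqn-63 lies next to idpc-7 on chromosome V, and idpc-7 next to idpc-6, with 0 protein-coding genes between the members of each pair; the idpc genes are named for predicted disordered proteins of the pharynx. pqn-74, named after its values were seen, had 407.7, 658.6 and 664.4 in the mutant, against 572.2, 836.9 and 1573.7 in wild-type. Its genotypes overlapped, with a difference of -0.69 ± 0.39 (SE; limma, adjusted p = 0.369) and a wild-type range of 1.46.

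The remaining 32 tested pqn genes had a median difference of 0.12 and a median wild-type range of 0.47, with 11 lower and 21 higher in the mutant. Their choice followed the values of the 3 genes set aside, so these figures describe them only. Among the 32 is pqn-72, with a difference of -0.63 and a wild-type range of 2.19.

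The 5 pqn genes that were higher at an unadjusted p under 0.05 were pqn-48, pqn-21, pqn-62, pqn-75 and pqn-15. pqn-48 had signals of 499.9, 379.4 and 370.0 in zip-3(gk3164) larvae, against 196.8, 144.5 and 236.3 in wild-type larvae, and its groups did not overlap. The difference of pqn-48, 1.13 ± 0.26 (SE, n = 3 per genotype; limma, adjusted p = 0.132), had the lowest adjusted p of all 44 tested members. Without mutant array 3 it had an adjusted p of 0.0292 in limma, and pqn-94, the only other pqn gene to pass then, had one of 0.0134 with a difference of -1.15. With all arrays pqn-94 had 342.3, 285.9 and 883.2 in the mutant, against 598.4, 700.7 and 791.6 in wild-type, so that mutant array 3 lay above every wild-type array.

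pqn-62 had signals of 263.1, 367.5 and 344.7 in the mutant, against 163.0, 120.7 and 258.5 in wild-type, a difference of 0.90 ± 0.32 (SE; limma, adjusted p = 0.199). pqn-75, which is expressed in the gland cells of the pharynx, had 104.1, 109.9 and 173.3 in the mutant, against 45.3, 71.5 and 92.4 in wild-type. Its difference of 0.91 ± 0.36 (SE; limma, adjusted p = 0.227) ran opposite to that of most abu genes, although it too is a pharyngeal gene. In each of these genes no mutant array lay below a wild-type array.

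pqn-21 had signals of 658.0, 792.9 and 670.3 in zip-3(gk3164) larvae, against 440.5, 482.3 and 471.9 in wild-type larvae. Its wild-type range was 0.13 on the log2 scale, and its difference was 0.60 ± 0.18 (SE; limma, adjusted p = 0.176). Its other 2 probe sets gave 0.66 and 0.31. pqn-15 differed by 0.50 ± 0.21, pqn-25 by 0.55 ± 0.25 and pqn-65 by 0.41 ± 0.18 (SE, n = 3 per genotype; limma, adjusted p 0.244, 0.284 and 0.257). All mutant arrays lay above all wild-type arrays in each of these 3 genes. The other probe set of pqn-15, which is not marked as sharing sequence, differed by 0.95.

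pqn-59 and pqn-41, which have known functions, and pqn-52 are given whatever their values or for their test statistic. pqn-59, whose human counterpart UBAP2L takes part in stress granules, had 3848, 3896.5 and 4163.2 in the mutant, against 3670.5, 4269.6 and 3931.8 in wild-type. The difference was 0.01 ± 0.14 (SE; limma, adjusted p = 0.987). pqn-41, which is needed for the death of the male linker cell, had 323.0, 341.2 and 298.0 in the mutant, against 188.5, 245.3 and 283.2 in wild-type. Its difference was 0.44 ± 0.22 (SE; limma, adjusted p = 0.325), and its other 3 probe sets were too dim to be tested. pqn-52 was lower in the mutant, with 5934.5, 6317.5 and 7004.9 against 8262.1, 7744.1 and 7929.8 in wild-type. With a wild-type range of 0.09 the groups did not overlap, the difference was -0.32 ± 0.13 (SE; limma, adjusted p = 0.249), and its other 2 probe sets gave -0.56 and -0.49.

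The widest wild-type arrays of any tested member belonged to pqn-26 and pqn-13. pqn-26 had signals of 127.1, 145.0 and 137.0 in the mutant, against 41.7, 163.9 and 466.4 in wild-type, a wild-type range of 3.48. Its difference of -0.11 ± 0.76 (SE; limma, adjusted p = 0.956) became 0.72 without wild-type array 3. pqn-13 had 189.2, 281.3 and 180.7 in the mutant, against 41.4, 121.7 and 358.0 in wild-type, a wild-type range of 3.11 and a difference of 0.80 ± 0.70 (SE; limma, adjusted p = 0.572). In both genes the mutant arrays lay inside the span of the wild-type arrays. pqn-72 had 543.4, 463.3 and 184.6 in the mutant, against 217.3, 805.1 and 992.1 in wild-type, with a difference of -0.63 ± 0.64 (SE; limma, adjusted p = 0.629).

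The 12 pqn genes below the signal filter had a median difference of -0.24 and divided evenly, 6 lower and 6 higher. In pqn-80, named after its values were seen, all mutant arrays lay above all wild-type arrays, with 80.3, 63.3 and 66.3 in zip-3(gk3164) larvae against 34.4, 20.9 and 28.6 in wild-type larvae. Such dim values were not tested.

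Lists of genes for the tissues and processes around the abu genes were read beside them. For pharyngeal muscle the written plan held myo-1, myo-2, tnc-2 and tni-4, and tnt-4 and myo-5 were listed beyond it. For pharynx cuticle and regulators it held chs-2, pha-4 and ceh-22. The lists of pharynx cuticle, body wall muscle, intestine, epidermis, sperm and germline also went beyond the plan. It spelled out no genes for moulting or endoplasmic reticulum stress. Pharyngeal muscle genes were the nearest in pattern: 6 of 6 tested were lower in the mutant on average, with a median difference of -0.46, and all 6 had the wild-type order of array 1, array 2 and array 3. At an unadjusted p under 0.05, 2 of the 6 were lower, tni-4 and tnt-4, which encode troponins of pharyngeal muscle, and 0 had an adjusted p under 0.05. tnt-4 had 323.3, 450.6 and 467.6 in the mutant, against 471.9, 726.8 and 1024.2 in wild-type, a difference of -0.79 ± 0.31 (SE; limma, adjusted p = 0.232). tni-4 differed by -0.99 ± 0.37 (SE; limma, adjusted p = 0.215). The summed signal of the 6 genes ran between 1589.3 and 3617.3 on the mutant arrays, against 2332.1 and 5119.6 on the wild-type arrays, and no marker was at 0. The part of pharyngeal muscle in the abu values was not tested.

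Other lists of pharyngeal genes had medians above 0. The median difference was 0.16 over the 7 tested genes of the pharyngeal glands, and 0.28 over the 7 tested genes of pharynx cuticle, chitin and regulators. In both lists 0 genes had an unadjusted p under 0.05. Summed signals of the gland genes ran between 1363.6 and 1600.6 in the mutant, against 1150.1 and 2153 in wild-type. Wild-type array 3 was the highest wild-type array in all 7 gland genes, and mutant array 1 the lowest mutant array in 3. In the second list 2 of the 7 genes were lower on average, chs-2 by a difference of -0.28 and idpc-1, a gene named for a predicted disordered protein of the pharynx. idpc-1 had 566.0, 908.5 and 783.0 in the mutant, against 796.6, 1378.2 and 3394.8 in wild-type. The difference of idpc-1 was -1.07 ± 0.49 (SE, n = 3 per genotype; limma, adjusted p = 0.285). The 5 genes higher on average were pha-4 (0.75), tbx-2 (0.62), nep-1 (0.39), marg-1 (0.28) and idpa-3 (0.16). The median of this mixed list therefore does not describe chs-2 and idpc-1. Outside the list, idpc-2, idpc-5, idpc-6 and idpc-7 differed by -1.07, -1.04, -1.48 and -0.19. The abu/pqn paralog group genes appg-2 and appg-1 differed by -1.13 and 0.03. pha-4, the FoxA factor that specifies the pharynx, was at 155.7, 183.9 and 85.9 in the mutant, against 53.8, 87.4 and 108.9 in wild-type, with overlap between genotypes.

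Genes of the moulting cycle lay on the other side. All 11 tested genes on a list of regulators of moulting and developmental timing were higher on average in the mutant. Their median difference was 0.96, and 8 had an unadjusted p under 0.05. The smallest difference was 0.09, in the timing gene lin-28. Among 20 genes of moulting and the apical matrix, which coats the epidermis before a new cuticle is laid down, the median difference was 1.98. Of these, 6 had an adjusted p under 0.05 and all 6 rose. nhr-25, a nuclear receptor that acts in moulting, had 485.1, 349.2 and 371.9 in zip-3(gk3164) larvae, against 106.9, 107.1 and 146.6 in wild-type larvae, a difference of 1.74 ± 0.24 (SE; limma, adjusted p = 0.0545). Relative to wild-type means the median of the moulting and apical matrix genes was 2.19, 2.26 and 1.64 on mutant arrays 1, 2 and 3, against -0.74, 0.20 and 0.45 on wild-type arrays 1, 2 and 3. Gene by gene, 11 of the 20 had the order of wild-type arrays seen in the abu genes, and 12 of the 20 had wild-type array 3 highest. The part of moulting stage in the abu values was not tested.

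The genes of endoplasmic reticulum stress, the condition for which the abu genes were named, had a median near that of all genes tested, 0.03. Over 17 tested genes the median difference was 0.05, with 1 lower and 3 higher at an unadjusted p under 0.05 and 0 with an adjusted p under 0.05. The lower one was hsp-4, the BiP chaperone that serves as a readout of the response, with 2535.6, 2728.9 and 2608.7 in zip-3(gk3164) larvae, against 4057.8, 3152.7 and 3628 in wild-type larvae. Its difference was -0.45 ± 0.15 (SE; limma, adjusted p = 0.193). xbp-1, the transcription factor of the branch whose loss defined the abu genes, differed by 0.04 ± 0.21 (SE; limma, adjusted p = 0.935). The 3 higher genes were the kinase gene pek-1, the transcription factor gene atf-6 and sel-11, which encodes a ubiquitin ligase. ced-1, the engulfment receptor reported to be needed for abu and pqn expression under such stress, was at 196.4, 199.2 and 325.5 in the mutant, against 186.8, 106.7 and 163.6 in wild-type. None of the mutant arrays of ced-1 lay below a wild-type array, and its difference was 0.65 ± 0.32 (SE; limma, adjusted p = 0.303).

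Markers of other tissues were read in the same way, and 0 genes of these 5 lists had an adjusted p under 0.05 in limma. At an unadjusted p under 0.05, 5 of 6 sperm genes and 4 of 8 germline genes were lower, 4 of 6 epidermal genes were higher and 1 was lower, 1 of 7 body wall muscle genes was higher and 1 of 7 intestinal genes was lower. Median differences were -1.56 over 6 sperm genes, -0.90 over 8 germline genes, 1.01 over 6 genes of the epidermis, 0.25 over 7 of body wall muscle and -0.10 over 7 of the intestine. Within the genotypes, body wall muscle shared part of the array order of the abu genes. Wild-type array 3 was the highest wild-type array in 7 of its 7 genes, and mutant array 1 the lowest mutant array in 6. In the sperm genes mutant array 3 was the closest to wild-type, at a median of -0.59 against -1.69 and -2.31 on mutant arrays 1 and 2. Summed signals of the sperm genes ran between 7190.5 and 24127 in the mutant, against 29959.2 and 42128.3 in wild-type, and no marker was at 0. Their part in the abu values was not tested.

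**Figure D4:**
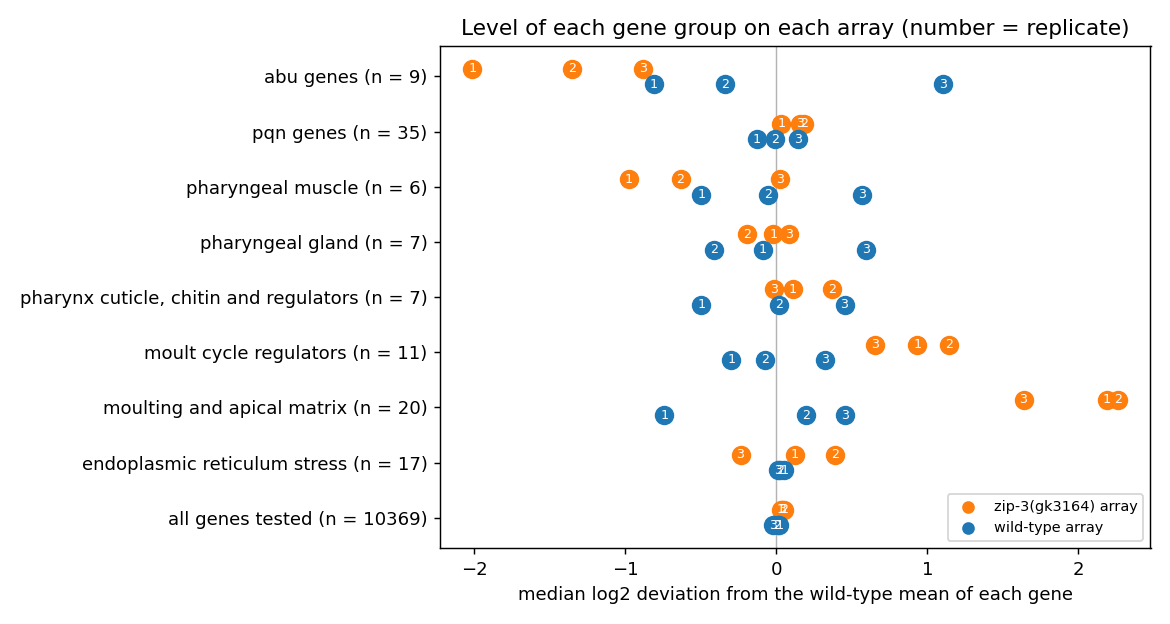
Median log2 signal of each gene group on each array relative to every gene's wild-type mean; points are single arrays with their replicate number, zip-3(gk3164) and wild-type in different colours. Among the groups drawn, the abu genes and the pharyngeal muscle genes share the position of wild-type array 3 above and mutant array 1 below. The moulting and apical matrix genes lie near 2 on all mutant arrays.

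Likeness in pattern was measured by ranking all 10369 genes tested by Pearson's correlation with the mean log2 profile of the 9 abu genes over the 6 arrays. The 6 arrays form 2 genotype groups and share scaling, so the ranks are a description. The highest rank went to pqn-74, followed by idpc-1, W03F8.6, abu-8 and the collagen gene col-89. Of the abu genes, whose own values enter the mean, 7 ranked between 4 and 48. abu-12 ranked 1490 and abu-13 ranked 4866. pqn-54 stood at rank 12 and pqn-63 at 42, and the next of the other 32 pqn genes, pqn-26, stood at 350.

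Genes named for the pharynx, or known to act there, were spread over the ranking. The abu/pqn paralog group gene appg-2 ranked 13, with 137.4, 284.1 and 208.8 in zip-3(gk3164) larvae, against 259.3, 394.6 and 832.6 in wild-type larvae. Its difference was -1.13 ± 0.46 (SE; limma, adjusted p = 0.240). Its paralog appg-1 ranked 512, with a difference of 0.03. Of the idpc genes, idpc-2 ranked 8, idpc-6 26 and idpc-5 148. The 6 pharyngeal muscle genes ranked between 9 (tnt-4) and 346 (tnc-2), with myo-5 at 41. Those of the written plan ranked between 126 (myo-2) and 346. The 7 gland genes ranked between 22 (phat-2) and 6134 (phat-5), with phat-1 at 1797, phat-3 at 2038, phat-6 at 3321 and dod-6 at 4412. Among genes of pharynx cuticle, chitin and regulators, chs-2, which encodes the chitin synthase of the pharynx, ranked 49, pha-4 6127 and marg-1 6544. idpc-6, from the same stretch of chromosome V as pqn-63, had 271.5, 394.7 and 347.8 in the mutant, against 481.2, 911.4 and 1842.5 in wild-type, without overlap. Its difference was -1.48 ± 0.45 (SE; limma, adjusted p = 0.179). idpc-7, which lies between pqn-63 and idpc-6, ranked 206, and its genotypes overlapped, with 69.9, 148.0 and 138.5 in the mutant, against 94.3, 80.8 and 281.3 in wild-type. The difference of idpc-7 was -0.19 ± 0.53 (SE; limma, adjusted p = 0.880).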

How the data were processed

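Whole-animal RNA from 3 zip-3(gk3164) and 3 wild-type samples was measured on Affymetrix arrays. The deposited values are probe set intensity signals on a linear scale, and the submitters' processing notes name MAS5 and Affymetrix Expression Console as the authors' tools; no version of either is given in the sources used here. Of 22625 probe sets, 77 were controls. One scaling factor for each array leaves other differences between distributions untouched, and MAS5 makes dim probe sets noisy. Detection calls were not used here.

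Deposited signals were transformed to log2 with no constant added. Probe sets whose mean log2 reached the 40th percentile (13529 of 22548) were fitted with limma 3.58.1 in R 4.3.3 on genotype, using moderated two-sided tests with an intensity trend; p-values were adjusted by Benjamini-Hochberg over all probe sets tested, at a threshold of 0.05. The fit was tested on simulated data. The platform annotation gave 1 gene for 20766 probe sets, several for 887 and none for 895. Member identifiers matched the RefSeq gene table of WBcel235, 11 of its 15 abu and 47 of its 56 pqn genes, and 0 symbols changed. pqn-47 and pqn-85 have no members under those names.

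Members and lists were chosen with earlier results of these data known. Named genes were zip-3, every abu gene, the 10 pqn genes with the largest moderated t, the 4 with the largest wild-type range, pqn-41 and pqn-59. Up to 3 genes of each list by moderated t were added, of which those bearing on the members are described. pqn-74, pqn-80, pqn-94 and genes from the likeness ranking were picked after their values were seen. The list genes xbp-1, pek-1, ced-1, lin-28, nep-1 and idpa-3 were named outside these rules. Alternatives covered normalization, offset, filter, moderation, array weights, replicate block, single arrays left out, shared sequence and the choice of probe set. Protein and promoter sequences were not used here.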

Additional observations from a re-analysis of the deposited data

How the results depend on the processing

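Over the array 18 probe sets were called. The count was 42 with an offset of 16 and 29 without probe sets of shared sequence. It was 4738 of the 13529 tested with array weights, and 0 to 2151 when single arrays were left out, the highest without mutant array 3. With array weights 7 of the 9 abu genes tested were called (6 lower, 1 higher), against 0. Of the 35 pqn genes tested 16 were called then (7 lower, 9 higher), against 0, and 19 had an unadjusted p under 0.05. Leaving out single arrays gave 0 to 1 abu and 0 to 2 pqn genes called, 1 to 7 abu and 4 to 11 pqn genes at an unadjusted p under 0.05, median differences of -1.87 to -0.90 (abu) and -0.023 to 0.24 (pqn), and median wild-type ranges of 0.45 to 1.84 (abu) and 0.37 to 0.56 (pqn). Without probe sets of shared sequence 1 abu gene had an unadjusted p under 0.05, and the medians were -0.43 (abu) and -0.10 (pqn). That abu median covers only abu-10, abu-14 and the dim, untested abu-2, abu-3 and abu-4. With the probe sets of a gene averaged, the abu median was -0.81, with 4 abu genes at an unadjusted p under 0.05. Shares of all genes at an unadjusted p under 0.05 are not given for these settings. The member counts at that level therefore have no background beside them.

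Over all tested signals, deviations of same-numbered arrays of the 2 genotypes correlated at 0.02, 0.05 and -0.16. Over the members they correlated at 0.31, -0.12 and 0.06. With 3 arrays per genotype these values cannot settle whether the numbers pair samples. With replicate number as a block 0 probe sets were called, and 6 abu and 7 pqn genes had an unadjusted p under 0.05 in limma. The share of all genes at that level is not given for this fit. For abu-4 the unadjusted p in limma was 0.000164 with the block and 0.0161 without it, and for abu-11 0.00332 and 0.0173. Their adjusted p with the block were 0.125 and 0.203. Of 449 values of named genes under the alternatives 417 kept direction and side of the threshold, 20 passed it newly, 9 changed sign and 3 values with no test moved. The alternatives of filter, moderation and replicate block leave the log2 difference itself unchanged, so no sign could change under them. The 417 also hold values with no test, such as those of abu-3, which have no side of the threshold. The count is therefore no measure of how stable the values are. The sign changes were abu-12 at -0.16 without wild-type array 1, abu-14 at 0.16 without wild-type array 3, pqn-72 at 0.024 with array weights, pqn-26 at 0.11 with array weights and 0.72 without wild-type array 3, and pqn-59 at -0.052 with median centring, -0.036 with array weights, -0.03 without mutant array 3 and -0.047 without wild-type array 1. With single arrays left out these genes ranged from -0.16 to 0.76 (abu-12), -0.84 to 0.16 (abu-14), -1.02 to 0.72 (pqn-26) and -0.047 to 0.062 (pqn-59). The causes were not tested. The planned comparisons of protein sequences and promoter motifs were not run. With 3 arrays per genotype and 1 scaling factor per array, the number of arrays limits precision.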
